A study of Mus musculus with 4 samples.

Results

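Acute phase proteins are plasma proteins whose output by the liver changes during inflammation or injury. Here they were followed as 10 genes selected by name: the serum amyloid A genes Saa1, Saa2, Saa3 and Saa4, the orosomucoid genes Orm1 and Orm2, lipocalin 2 (Lcn2), haptoglobin (Hp), and the pentraxin genes Crp and Apcs. All 10 were among the 25655 genes of the expression table, and all 10 were among the 12967 genes with enough reads to be tested.

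Liver RNA was sequenced from male mice of 2 groups, with 2 libraries in each. HFD-WT mice were ADAR2+/+ and HFD-KO mice were ADAR2-/-, a whole-body loss of ADAR2, an enzyme that converts adenosine to inosine in RNA. Both groups carried GluR-B R/R, an allele that supplies the edited form of a glutamate receptor and keeps ADAR2-deficient mice alive, both were bred from heterozygous intercrosses on a B6129S background, and both ate a high-fat diet (HFD) for 12 weeks from the age of 5 weeks. How many mice gave RNA to each library is not given in the sources used here, and the study names more mice per group than there are libraries, so a library may hold RNA of several. Replicate error below means the spread between 2 libraries.

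Hepatocytes are the main source of most acute phase proteins, and they make more of them when interleukin 6, interleukin 1 or tumour necrosis factor reaches their receptors. Interleukin 6 acts mainly through the receptor subunit gp130 and the factor STAT3, interleukin 1 and tumour necrosis factor act mainly through NF-kB, and C/EBP factors act beside both. Serum amyloid A and the pentraxin serum amyloid P are the major acute phase proteins of the mouse, in which C-reactive protein stays low in blood, whereas C-reactive protein is a major one in humans.

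The libraries held 24480798 to 28691330 counted reads, and 3 reads of a gene corresponded to 0.105 to 0.123 CPM. CPM values here are read counts scaled to a common library size after TMM, a normalization that equalizes the bulk of genes between libraries. Adarb1, the gene of ADAR2, measured 15.7 and 19.8 CPM under HFD-WT and 6.23 and 9.54 CPM under HFD-KO, with no overlap. The log2 difference was -1.17 (SE 0.20), with an adjusted p of 0.159 by edgeR's quasi-likelihood test. The liver markers were in place in all 4 libraries, with 82346 to 98436 CPM over 10 hepatocyte genes, and Alb, the albumin gene, alone at 52653 to 66078 CPM.

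For the acute phase genes the libraries that stood apart were the 2 HFD-KO libraries, and they stood apart from each other. In 8 of the 10 genes HFD-KO replicate 1 was the lowest of the 4 libraries and HFD-KO replicate 2 the highest, with both HFD-WT libraries between them. That order was shared by 9.01% of all genes tested, and the reverse order, found in 0 members, by 9.04%. Of the other 2 members, Crp had groups that did not overlap, and Saa4 overlapped in another order, as 41.1% of all genes did. It was noticed after the values were seen. The genotype differences of the members are therefore also given with each HFD-KO library left out.

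The upstream sequences of 6 members are shown because the order divides close neighbours. Saa1, Saa2, Saa3 and Saa4 lie in 1 cluster on chromosome 7, and Crp and Apcs lie near each other on chromosome 1, yet Saa4 and Crp did not follow the order of the others. The sequences are the 250 bases before the RefSeq start site on build GRCm38.p6, written 5′ to 3′ on the strand of the gene, and capitals mark matches to the motifs described below them. They lie at chr7:46742981-46743230 (minus strand), chr7:46751583-46751832 (plus strand), chr7:46715677-46715926 (minus strand), chr7:46732604-46732853 (minus strand), chr1:172697806-172698055 (plus strand) and chr1:172895055-172895304 (minus strand).
Saa1: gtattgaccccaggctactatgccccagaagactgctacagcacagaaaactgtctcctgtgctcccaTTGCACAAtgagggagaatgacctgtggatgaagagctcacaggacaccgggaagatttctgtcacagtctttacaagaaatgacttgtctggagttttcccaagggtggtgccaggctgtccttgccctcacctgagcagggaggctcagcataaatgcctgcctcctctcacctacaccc
Saa2: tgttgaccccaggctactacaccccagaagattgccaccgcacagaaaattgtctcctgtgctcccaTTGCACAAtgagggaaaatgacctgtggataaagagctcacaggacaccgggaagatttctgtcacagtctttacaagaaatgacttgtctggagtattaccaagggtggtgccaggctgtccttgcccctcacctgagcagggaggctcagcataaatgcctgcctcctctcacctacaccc
Saa3: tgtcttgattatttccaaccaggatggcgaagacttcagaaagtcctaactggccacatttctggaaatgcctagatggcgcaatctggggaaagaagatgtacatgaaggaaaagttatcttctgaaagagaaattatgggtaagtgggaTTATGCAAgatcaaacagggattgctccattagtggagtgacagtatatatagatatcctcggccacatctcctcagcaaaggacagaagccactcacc
Saa4: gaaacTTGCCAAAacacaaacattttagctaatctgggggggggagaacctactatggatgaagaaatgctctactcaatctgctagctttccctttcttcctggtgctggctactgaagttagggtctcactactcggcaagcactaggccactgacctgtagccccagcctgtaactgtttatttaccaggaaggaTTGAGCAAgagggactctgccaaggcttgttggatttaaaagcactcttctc
Crp: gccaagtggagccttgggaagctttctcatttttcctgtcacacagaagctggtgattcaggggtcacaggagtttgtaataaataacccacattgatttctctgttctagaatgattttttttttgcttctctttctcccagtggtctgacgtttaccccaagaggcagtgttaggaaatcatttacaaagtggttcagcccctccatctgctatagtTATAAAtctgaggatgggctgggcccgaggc
Apcs: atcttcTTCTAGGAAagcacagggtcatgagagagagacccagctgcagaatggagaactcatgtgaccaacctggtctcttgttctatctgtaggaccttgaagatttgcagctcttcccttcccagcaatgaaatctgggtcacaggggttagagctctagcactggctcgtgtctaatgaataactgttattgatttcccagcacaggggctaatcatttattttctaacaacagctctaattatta

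The window searched ran from 250 bases before to 50 bases after the start, on both strands, in the 8 members with a RefSeq entry in the table used, which were these 6 with Orm2 and Lcn2. The C/EBP motif TTGCNNAA was in 6 of the 8 windows and in 10.8% of 32851 promoter windows of that length. The STAT motif TTCNNNGAA was in 1, that of Apcs, against 8.3% of windows. The TATA motif TATAAA was in Crp and Orm2, against 13.6%, the NF-kB motif (GGG, any 2 bases, then TTTCC) was in none of the 8, against 1.63%, and the HNF1 motif GTTAAT was in none, against 7.1%. None of the matches in these windows overlapped another.

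Saa1 and Saa2 carried the same match, TTGCACAA, with its first base at -182 and -183 from the start. Their windows were identical at 287 of 301 aligned positions, or 95.3%, while the identity of every other pair of members lay between 46.7% and 54.2%. Saa3 held TTATGCAA at -99, which is the motif read on the other strand. Saa4 held TTGCCAAA at -245 and TTGAGCAA at -52. Lcn2 held TTGCTCAA at -216 and Orm2 held TTGCGCAA at -120. A match is a match of letters and shows no binding.

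No acute phase gene passed an adjusted p under 0.05 between the genotypes. By edgeR's test 0 of the 10 were called, higher or lower, where 0.0771% of all genes tested were called, 0.054% higher and 0.0231% lower. Adjusted p values of the 10 ran from 0.540 to 0.990. DESeq2's Wald test called 0 as well, where it called 115 of the 12967 genes tested. At an unadjusted p under 0.05 edgeR gave 1 of the 10, Crp, and DESeq2 gave 1, against 8.98% of all genes in edgeR. A fold change above 0 was found in 6 members (51.6% of all genes) and below 0 in 4 (48.4% of all genes), with a median log2 fold change of 0.16 against 0.01 over all genes tested.

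The fold changes of these genes were imprecise. Their standard errors ran from 0.0926 to 0.469 with a median of 0.293, where the median over all genes tested was 0.122 on the log2 scale. Counting error was small beside this, between 0.293% for Hp and 7.54% for Saa3, in the library with the fewest reads of the gene. The groups did not overlap in 1 member, Crp, where 40.8% of all genes had groups that did not overlap.

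**Figure D1:**
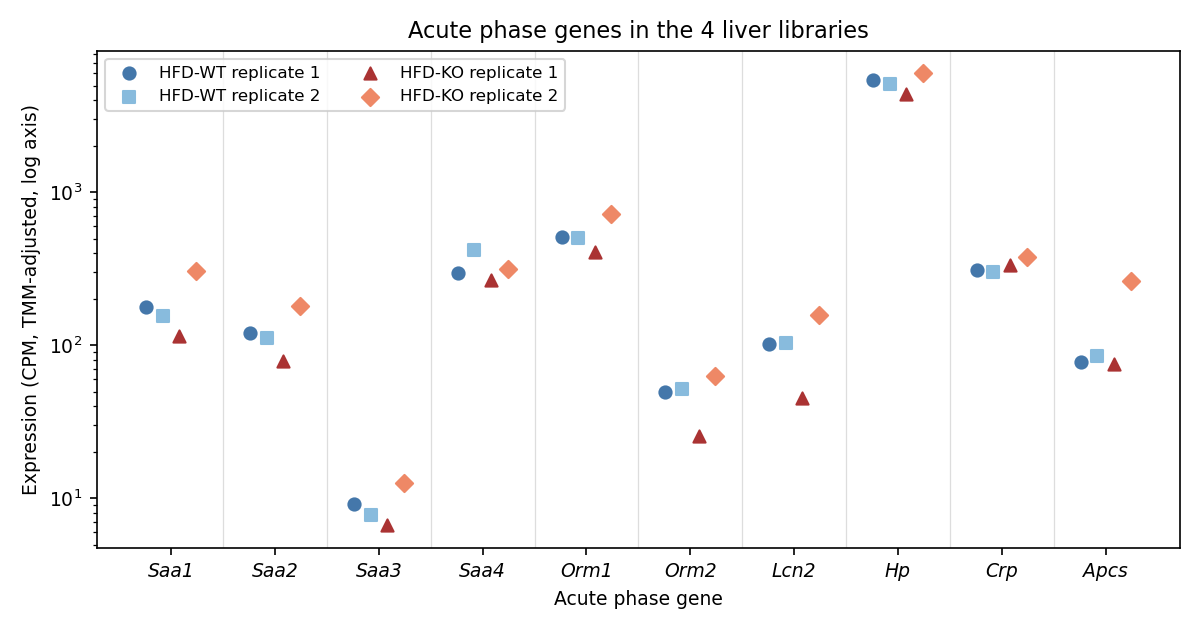
Expression of the 10 acute phase genes in each of the 4 liver libraries, in CPM on a log axis, with 1 point per library and no error bar. HFD-KO replicate 1 (dark triangles) is the lowest and HFD-KO replicate 2 (diamonds) the highest point for every gene except Saa4 and Crp.

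Saa1 and Saa2 encode the serum amyloid A proteins that the liver releases into blood, where they bind high-density lipoprotein. Saa1 (ENSMUSG00000074115, GRCm39 chr7:46389921-46392404, minus strand) measured 178.5 and 155.8 CPM in HFD-WT libraries and 115.2 and 305.7 CPM in HFD-KO libraries. The HFD-WT pair lay inside the HFD-KO pair. Its log2 fold change was 0.33 (SE 0.37, 95% interval -0.54 to 1.20, adjusted p = 0.834 by edgeR). Saa2 (ENSMUSG00000057465, chr7:46401214-46403737, plus strand) showed the same order, at 121.1 and 111.5 CPM against 79.6 and 181.3 CPM. Its log2 fold change was 0.17 (SE 0.316, 95% interval -0.58 to 0.91, adjusted p = 0.910 by edgeR).

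The HFD-KO libraries differed 2.65-fold from each other in Saa1 and 2.28-fold in Saa2, which placed these genes 75th and 114th among the 12967 genes by the ratio of replicate 2 to replicate 1. In HFD-WT libraries the log2 ratio of replicate 2 to replicate 1 was -0.20 for Saa1 and -0.12 for Saa2. The transcripts of Saa1 and Saa2 are very alike, and how reads that align to both were counted is not given in the sources used here, so the division between them is uncertain. With the reads of both added together the log2 fold change was 0.27, and it was not called. The ratio of Saa1 to Saa2 in TPM, the authors' length-corrected values, was 1.578 and 1.496 in HFD-WT and 1.549 and 1.805 in HFD-KO libraries.

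Saa3 encodes a serum amyloid A protein made by macrophages and fat cells as well as by other tissues outside the liver. It was the lowest member, and Saa3 (ENSMUSG00000040026, chr7:46361422-46365124, minus strand) measured 9.25 and 7.81 CPM in HFD-WT and 6.68 and 12.6 CPM in HFD-KO libraries, or 176 to 301 reads. Again the HFD-KO pair enclosed the HFD-WT pair, with 1.89-fold between the HFD-KO libraries. For Saa3 the log2 fold change was 0.17 (SE 0.271, 95% interval -0.46 to 0.80, adjusted p = 0.889 by edgeR).

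Saa4 encodes the constitutive serum amyloid A of high-density lipoprotein, which responds little to inflammation. Saa4 (ENSMUSG00000040017, chr7:46377422-46382027, minus strand) measured 297.5 and 417.8 CPM in HFD-WT libraries and 268.6 and 314.6 CPM in HFD-KO libraries. It was the 1 member whose HFD-WT libraries lay further apart than its HFD-KO libraries, with log2 ratios of 0.49 and 0.23, and here the highest library was HFD-WT replicate 2. The log2 fold change was -0.29 (SE 0.162, 95% interval -0.67 to 0.09, adjusted p = 0.653 by edgeR). The ratio of Saa1 to Saa4 in TPM was 2.06 and 1.28 in HFD-WT libraries and 1.48 and 3.34 in HFD-KO libraries, so the inducible and the constitutive gene did not keep a fixed ratio.

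Orm1 and Orm2 encode orosomucoid, the alpha-1-acid glycoprotein that binds drugs and lipids in plasma. Orm1 (ENSMUSG00000039196, chr4:63262797-63266400, plus strand) measured 512.4 and 505.9 CPM in HFD-WT and 406.6 and 725.4 CPM in HFD-KO libraries. The HFD-WT libraries were 0.02 apart on the log2 scale and the HFD-KO libraries 0.84. For Orm1 the log2 fold change was 0.15 (SE 0.232, 95% interval -0.39 to 0.70, adjusted p = 0.882 by edgeR).

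Orm2 (ENSMUSG00000061540, chr4:63280686-63284115, plus strand) measured 49.5 and 51.6 CPM against 25.7 and 63.6 CPM. Here HFD-KO replicate 1 lay further from the HFD-WT libraries than HFD-KO replicate 2 did. For Orm2 it was -0.18 (SE 0.343, 95% interval -0.98 to 0.62, adjusted p = 0.908 by edgeR). A paralog that was not a member, Orm3, lies between Orm1 and Orm2 and measured 9.46 and 8.58 CPM against 2.62 and 9.12 CPM, and it is given because it may share reads with them. Reads of Orm1, Orm2 and Orm3 added together gave a log2 fold change of 0.12, which was not called. The ratio of Orm1 to Orm2 in TPM was 10.4 and 9.80 in HFD-WT libraries and 15.8 and 11.4 in HFD-KO libraries.

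Lcn2 encodes lipocalin 2, which withholds iron from bacteria by binding their siderophores and is made by hepatocytes and by neutrophils. Lcn2 (ENSMUSG00000026822, chr2:32274645-32278264, minus strand) measured 102.5 and 104.4 CPM in the HFD-WT libraries, which were 0.03 apart on the log2 scale. The HFD-KO libraries measured 45.3 and 157.7 CPM, 1.80 apart, on either side of HFD-WT. The group means were 103.4 ± 1.36 CPM (SD, n = 2) and 101.5 ± 79.5 CPM (SD, n = 2). The log2 fold change was -0.03 (SE 0.460, 95% interval -1.11 to 1.05, adjusted p = 0.990 by edgeR), so the data allow a difference of either sign larger than 2-fold.

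Hp encodes haptoglobin, which binds free haemoglobin, and it was the most abundant member. Hp (ENSMUSG00000031722, chr8:110301760-110305804, minus strand) measured 5410 and 5140 CPM in HFD-WT libraries and 4409 and 6005 CPM in HFD-KO libraries. The order was that of Saa1, with a smaller span of 1.36-fold between the HFD-KO libraries. For Hp the difference was -0.02 on the log2 scale (SE 0.166, 95% interval -0.41 to 0.37, adjusted p = 0.982 by edgeR).

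Crp and Apcs encode the short pentraxins C-reactive protein and serum amyloid P component, which bind microbes and dead cells and engage complement and Fc receptors. Crp (ENSMUSG00000037942, chr1:172525622-172660598, plus strand) measured 311.7 and 303.9 CPM in HFD-WT libraries and 337.8 and 380.9 CPM in HFD-KO libraries. Both HFD-KO values lay above both HFD-WT values, as in 20.5% of all genes tested, while 20.4% had both below. The log2 fold change was 0.22 (SE 0.0926, 95% interval 0.01 to 0.44), with an unadjusted p of 0.0449 and an adjusted p of 0.540 by edgeR. Crp had the smallest standard error of the 10, and its HFD-KO libraries were 0.17 apart on the log2 scale.

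Apcs (ENSMUSG00000026542, chr1:172721528-172722608, minus strand) had the largest fold change of the 10 members, and that value came from 1 library. It measured 78.3 and 85.8 CPM in HFD-WT libraries, 75.4 CPM in HFD-KO replicate 1 and 262.3 CPM in HFD-KO replicate 2. HFD-KO replicate 1 lay just under the HFD-WT values, and HFD-KO replicate 2 was 3.48-fold above it. Against HFD-WT this gave a log2 fold change of 1.04 (SE 0.469, 95% interval -0.06 to 2.14, adjusted p = 0.580 by edgeR). The ratio of Apcs to Crp in TPM was 0.439 and 0.493 in HFD-WT libraries, 0.390 in HFD-KO replicate 1 and 1.20 in HFD-KO replicate 2.

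Across the 10 genes the replicates of HFD-KO were further apart than those of HFD-WT in 9, all but Saa4. The median size of the log2 ratio between replicates was 1.05 in HFD-KO libraries and 0.10 in HFD-WT libraries for the acute phase genes, against 0.15 and 0.12 for all genes tested. HFD-KO replicate 2 was above replicate 1 in 10 of 10 genes, as it was in 49.2% of all genes. The HFD-KO libraries were at least 2-fold apart in 5 members, Saa1, Saa2, Orm2, Lcn2 and Apcs, in each with replicate 2 above, where 1.33% of all genes were that far apart in that direction, 1.77% in the other and 3.1% in either. No member was 2-fold apart in the HFD-WT libraries, where 1.41% of all genes were. With 2 libraries a group, no test of this spread was made.

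**Figure D2:**
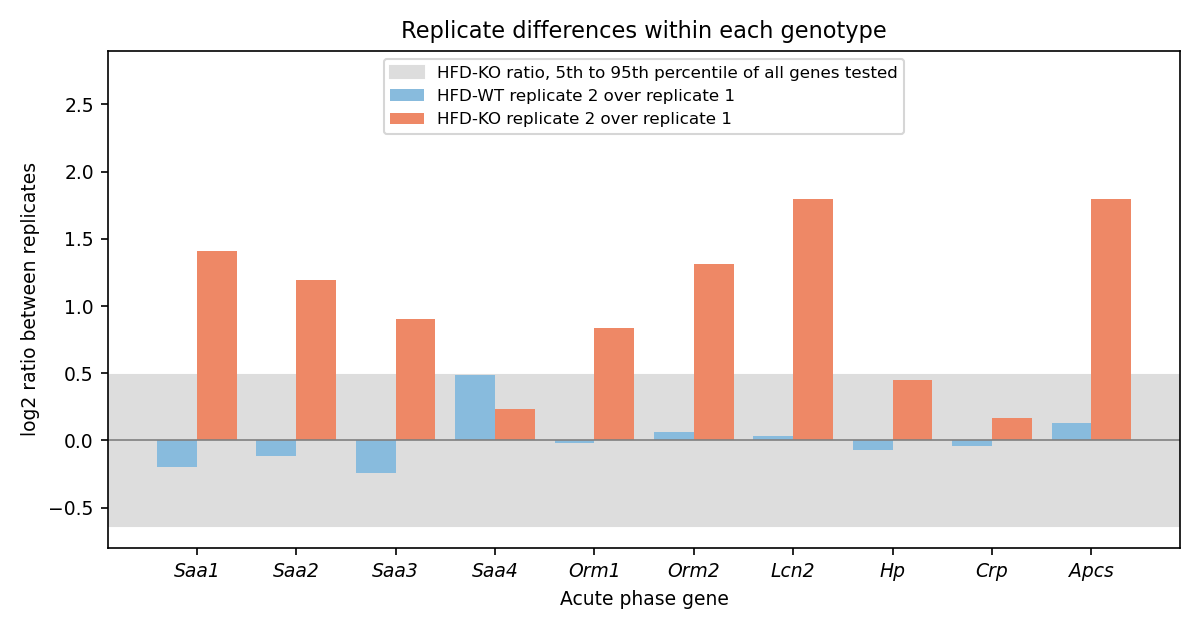
The log2 ratio of replicate 2 to replicate 1 for each acute phase gene within HFD-WT (blue bars) and within HFD-KO (orange bars), with a grey band for the range of the HFD-KO ratio from the 5th to the 95th percentile of all genes tested, -0.64 to 0.49. The HFD-KO bars run from 0.17 for Crp to 1.80 for Lcn2 and Apcs, and the bars of Saa4, Hp and Crp stay within the band.

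The sums showed the same division. The 10 genes together took 0.714% and 0.704% of counted reads in HFD-WT libraries, 0.573% in HFD-KO replicate 1 and 0.821% in HFD-KO replicate 2. Hp alone made up 63.4% to 71.4% of the TPM of the 10 genes in each library, so the sums mostly follow Hp. For each gene the difference in log2 CPM from its HFD-WT mean was also taken. The median of that difference over the 10 genes was -0.37 in HFD-KO replicate 1 and 0.54 in HFD-KO replicate 2.

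The direction of the genotype difference depended on which HFD-KO library was used. Without HFD-KO replicate 1, 8 of the 10 genes were called higher at an adjusted p under 0.05 by edgeR and 0 lower, where 5.31% of genes were called, and the median log2 fold change was 0.54. The 2 that were not called were Saa4 and Hp. Without HFD-KO replicate 2, 4 were called lower (Saa1, Saa2, Orm2 and Lcn2) and 0 higher, where 3.08% of genes were called, and the median was -0.38. In these fits the single HFD-KO library is assumed to vary like the HFD-WT libraries, while the HFD-KO libraries lay further apart than the HFD-WT libraries in 9 of these 10 genes.

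Saa1 went from a log2 fold change of 0.87 (adjusted p = 1.1e-07 by edgeR) without HFD-KO replicate 1 to -0.54 (adjusted p = 0.00125) without replicate 2. Lcn2 went from 0.61 (adjusted p = 3.2e-05 by edgeR) to -1.19 (adjusted p = 3.2e-09). Apcs went from 1.68 (adjusted p = 2.2e-14 by edgeR) to -0.12 (adjusted p = 0.763), so its higher value was seen in HFD-KO replicate 2 and not in replicate 1. Crp kept a value above 0 with either library left out, 0.31 and 0.13, and Saa4 kept a value below 0, -0.18 and -0.41. The values of the other 5 members changed sign, from 0.64 to -0.55 for Saa2, 0.56 to -0.35 for Saa3, 0.51 to -0.33 for Orm1, 0.33 to -0.98 for Orm2 and 0.19 to -0.26 for Hp. Leaving out HFD-WT replicate 1 called 0 of the 10, where 0.0901% of genes were called, and leaving out HFD-WT replicate 2 called 0 of the 10, where 0% were.

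**Figure D3:**
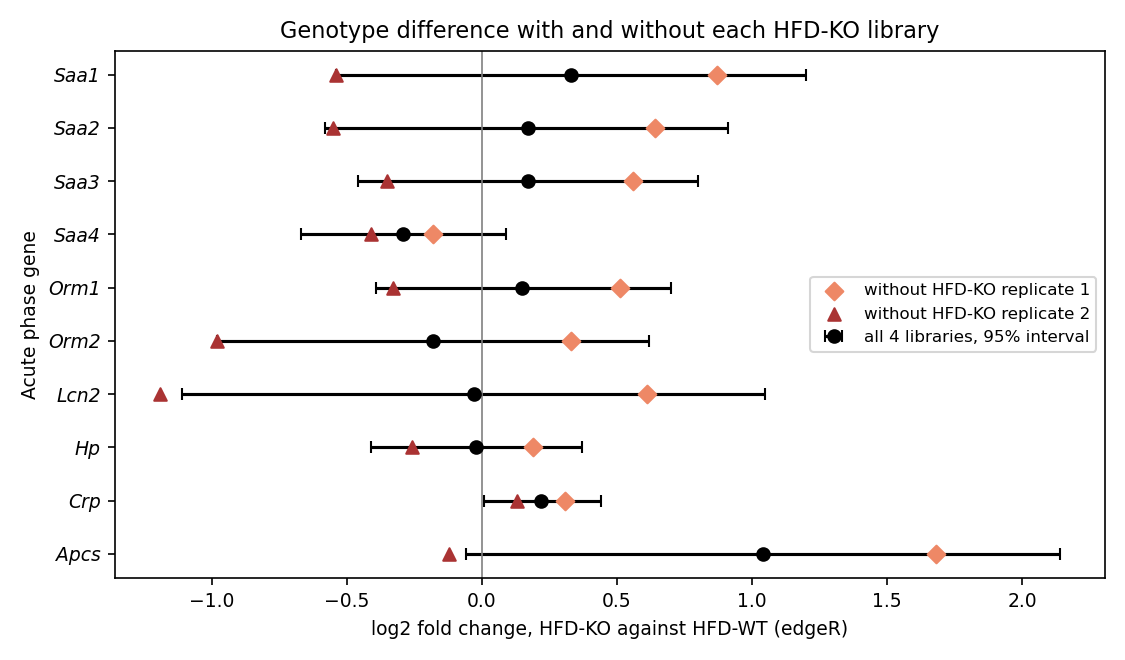
Genotype difference of each acute phase gene as log2 fold change, HFD-KO over HFD-WT, with all 4 libraries (black circles, with bars for the 95% interval from edgeR) and with 1 HFD-KO library left out (diamonds without replicate 1, triangles without replicate 2). Diamonds and triangles lie on opposite sides of 0 for 8 genes and on the same side for Saa4 and Crp.

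Levels were compared between genes in TPM, which divide by transcript length. Hp stood first at a mean of 7699 TPM (range over the 4 libraries 6247 to 8739), followed by Orm1 at 1370 TPM (999.7 to 1832) and Saa1 at 612.1 TPM (360.4 to 982.5). Crp (387.9), Saa2 (373.9), Saa4 (307.2), Apcs (254.4), Lcn2 (164.2) and Orm2 (121.7) followed in that order of mean TPM, and from Saa1 to Orm2 each range overlapped that of the next. Lcn2 was above Orm2 in 4 of 4 libraries although their ranges overlapped. Saa3 came last at 6.88 TPM (4.89 to 9.46), below the range of Orm2. By mean TPM Hp ranked 21st among all genes of the table and Saa3 6802nd.

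Genes of the upstream pathway and other genes related to the acute phase were described together, 97 in all, of which 91 could be tested. They were cytokines, cytokine receptors, signalling factors, other positive and negative acute phase genes, and receptors and partners of the proteins. By edgeR 0 of the 91 passed an adjusted p under 0.05, and 5 were higher and 6 lower at an unadjusted p under 0.05, where 4.25% and 4.73% of all genes were. The sum of these, 11, became 37 without HFD-KO replicate 1, where 16.4% of all genes passed that threshold, and 28 without HFD-KO replicate 2, where 11.4% did. It became 10 without HFD-WT replicate 1, where 6.76% of all genes passed, and 3 without HFD-WT replicate 2, where 3.48% did. With all 4 libraries 8.98% of all genes passed. The count rose or fell in the same direction as the percentage over all genes. Without either HFD-KO library the count rose by a larger factor than that percentage, and the cause was not tested. The order with HFD-KO replicate 1 lowest and replicate 2 highest was found in 24 of the 91, against 9.01% of all genes tested. Of these 24, 13 were other positive and 3 negative acute phase genes. The rest were 5 signalling and transcription factors, 2 cytokine receptors, 1 of the receptors and partners, and 0 cytokines.

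Of 10 cytokines that drive the response, 5 had enough reads to be tested. Of these, 0 passed an unadjusted p under 0.05, where 8.98% of all genes did. Il6, the main inducer, had 2, 0, 0 and 1 reads in HFD-WT replicates 1 and 2 and HFD-KO replicates 1 and 2, and Il22 had none, so neither was measurable at this depth. Il1b measured 1.97 and 1.82 CPM in HFD-WT and 2.20 and 1.80 CPM in HFD-KO libraries, and its order was not that of the acute phase genes. HFD-KO replicate 2 was below replicate 1 in all 5 of the cytokines tested, with a median log2 ratio of -0.47.

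Among cytokine receptors 2 of 9 tested were higher at an unadjusted p under 0.05 and 0 lower, where 4.25% and 4.73% of all genes were. Lifr, the receptor of leukaemia inhibitory factor, measured 86.1 and 78.2 CPM in HFD-WT and 125.3 and 101 CPM in HFD-KO libraries (log2 fold change 0.46, adjusted p = 0.329 by edgeR). Il1rap, a subunit of the interleukin 1 receptor, had a log2 fold change of 0.22 (adjusted p = 0.510 by edgeR). Il6st, the gp130 subunit, measured 149.8 and 143 CPM against 133.9 and 173.8 CPM, which is the order of Saa1 with a narrower span. Il1r1, the signalling receptor of interleukin 1, was the 1 receptor at least 2-fold apart in HFD-KO libraries, at 31.1 and 63.3 CPM, and its HFD-WT libraries measured 55.2 and 76.2 CPM.

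Of 25 signalling and transcription factors tested, 0 passed an unadjusted p under 0.05, where 8.98% of all genes did. The 25 factors had a median log2 fold change of 0.05. Their median log2 ratio of HFD-KO replicate 2 to replicate 1 was 0.14, and 5 of the 25 had the order of Saa1, against 9.01% of all genes. Hnf4a, a liver transcription factor and the most abundant of the list, measured 662.1 and 652.9 CPM in HFD-WT and 585.4 and 680.5 CPM in HFD-KO libraries. Nfkbia, the inhibitor of NF-kB, measured 44.2 and 42.2 CPM against 52.3 and 45.1 CPM. Socs3, the feedback inhibitor that STAT3 induces, measured 12.6 and 9.30 CPM in HFD-WT libraries and 9.04 and 18.1 CPM in HFD-KO libraries, and Stat3 itself measured 113.5 and 114.8 CPM against 110.4 and 143.9 CPM. Both had the order of Saa1. Socs3, Stat3, Il6 and Il22 were chosen after their values were seen.

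Other positive acute phase genes, whose output increases in inflammation, came nearest to the members among these 6 related lists by the median ratio between the HFD-KO libraries. Of 23 tested, 1 was higher and 1 lower at an unadjusted p under 0.05, where 4.25% and 4.73% of all genes were. HFD-KO replicate 2 was above replicate 1 in 20 of the 23, against 49.2% of all genes. In 13, HFD-KO replicate 1 was lowest and replicate 2 highest, against 9.01% of all genes. Their median log2 ratio of HFD-KO replicate 2 to replicate 1 was 0.64. C3, the central complement component, measured 7100 and 6715 CPM in HFD-WT and 6627 and 9948 CPM in HFD-KO libraries. Fgb, the fibrinogen beta chain, measured 2823 and 2443 CPM against 2649 and 4134 CPM, and Fgl1, a fibrinogen-like protein of hepatocytes, 253.9 and 214.2 CPM against 240.3 and 573 CPM. In Fgb and Fgl1, unlike Saa1, HFD-KO replicate 1 lay between the HFD-WT libraries.

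The 4 genes of that list at least 2-fold apart in HFD-KO libraries were Itih3, Orm3, Fgl1 and A2m, the last with 2 and 32 reads only. Hpx, hemopexin, which clears free haem as haptoglobin clears haemoglobin, measured 4847 and 5010 CPM against 3761 and 7270 CPM and was chosen after its values were seen. The genes past the unadjusted threshold were Agt, angiotensinogen, with a log2 fold change of 0.25 (adjusted p = 0.513 by edgeR), and Steap4, a metalloreductase, with -0.36 (adjusted p = 0.496 by edgeR). In neither did the groups overlap, as was so in 40.8% of all genes tested.

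Negative acute phase genes, whose output falls in inflammation, did not show the order in reverse. Of 15 tested, 3 had HFD-KO replicate 1 lowest and replicate 2 highest and 1 had the opposite order. Over all genes tested 9.01% and 9.04% had these orders. The median log2 ratio between the HFD-KO libraries was 0.11 in this list. At an unadjusted p under 0.05, 2 were higher, Fetub (log2 fold change 0.48) and Igfals (0.32), and 1 was lower, Apoa4 (-0.52). Over all genes tested 4.25% were higher and 4.73% lower at that threshold. Alb measured 53695 and 54879 CPM in HFD-WT libraries and 52653 and 66078 CPM in HFD-KO libraries, so the most abundant liver mRNA of this list also had the order of Saa1, with a log2 ratio of 0.33.

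Receptors and partners of the acute phase proteins had 0 genes higher and 4 of 15 lower at an unadjusted p under 0.05. Over all genes tested 4.25% were higher and 4.73% lower at that threshold. The 4 lower genes were the Fc receptors Fcgr1 (log2 fold change -0.95, adjusted p = 0.397 by edgeR) and Fcgr3 (-0.58), which bind pentraxins, with Cd36 (-0.24) and Hmox1 (-0.24). Cd36 is a scavenger receptor, and Hmox1 degrades haem. Lrp1, which takes up haem bound to hemopexin, was the most abundant at 1057 to 1155 CPM. The median log2 ratio between HFD-KO libraries was 0.03 in this list.

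**Figure D4:**
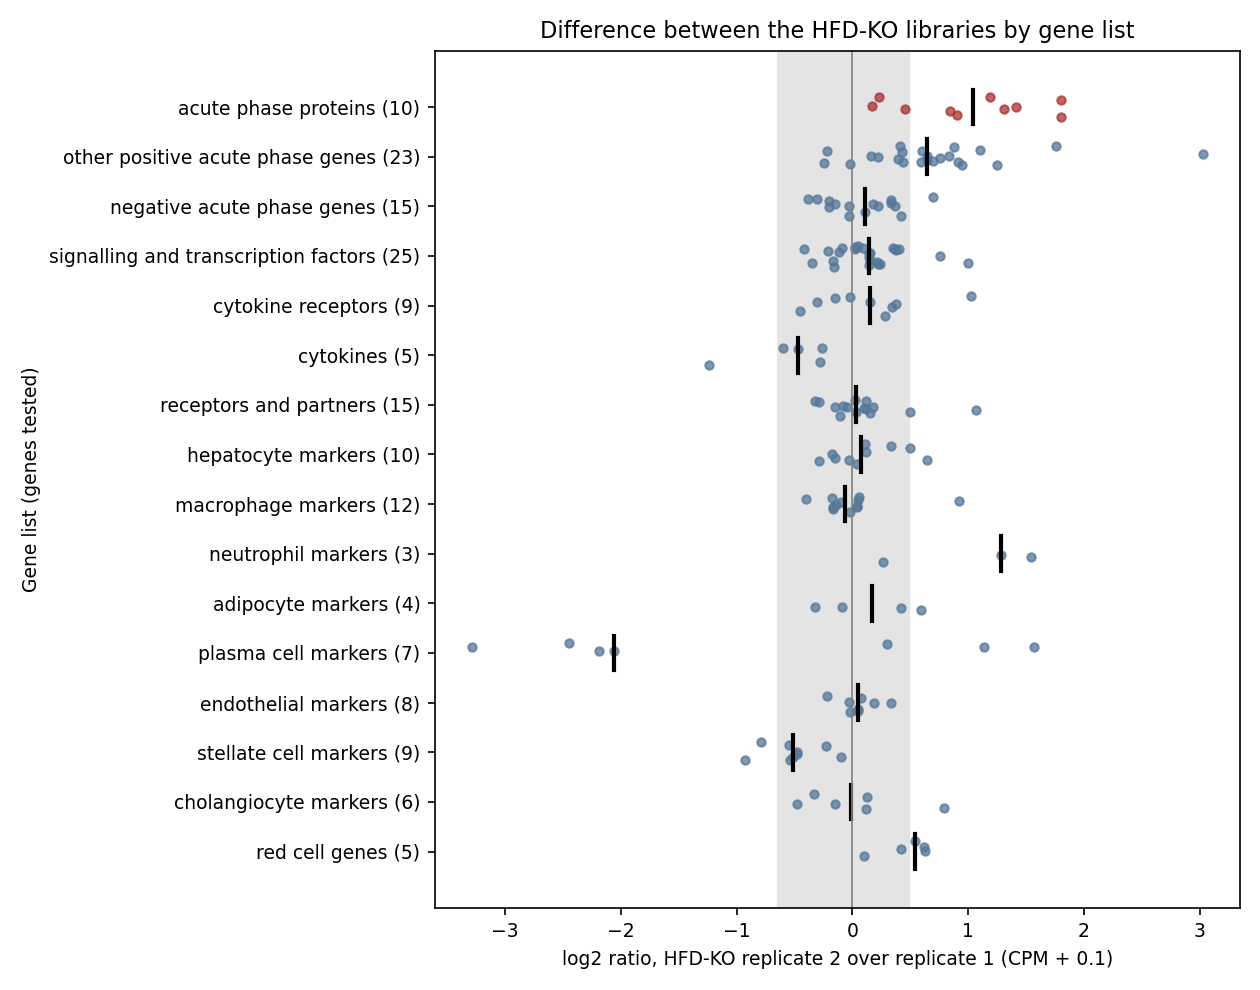
The log2 ratio of HFD-KO replicate 2 to HFD-KO replicate 1 for every tested gene of the acute phase members (red points) and of 15 other gene lists (blue points), 1 point per gene, with a black tick at each median and a grey band for the 5th to 95th percentile of all genes tested, -0.64 to 0.49. The medians are 1.05 for the acute phase members, 0.64 for other positive acute phase genes, 1.28 for the 3 tested neutrophil markers, 0.54 for red cell genes, -0.47 for cytokines, -0.51 for stellate cell markers and -2.06 for plasma cell markers, and those of the other lists lie between -0.06 and 0.16.

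Marker genes of the cells that liver tissue can hold were summed for each library. In bulk tissue fewer cells of a type and less RNA per cell cannot be told apart. Of 12 macrophage markers 9 were lower in HFD-KO libraries at an unadjusted p under 0.05, led by Vsig4 and Mpeg1, where 4.73% of all genes were. The macrophage markers summed to 490.5 and 614.6 CPM in HFD-WT and 400.4 and 381.2 CPM in HFD-KO libraries. The HFD-KO libraries were close to each other in that sum. A log2 fold change below 0 was found in 11 of the 12 and above 0 in 1, Marco (0.46). Marco was 1.91-fold higher in HFD-KO replicate 2 than in HFD-KO replicate 1. Stellate cell markers summed to 385.9 and 431.1 CPM against 336.6 and 242.8 CPM (5 of 9 lower), endothelial markers to 247.6 and 272.3 CPM against 242.3 and 258.4 CPM (1 of 8 lower), and cholangiocyte markers to 85.2 and 104.6 CPM against 76.4 and 65.3 CPM (1 of 6 lower).

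Neutrophil markers, which matter for Lcn2, were near the floor. They summed to 8.60 and 9.67 CPM in HFD-WT and 4.48 and 9.25 CPM in HFD-KO libraries, and 9 of 12, Ly6g, Mpo and Elane among them, had too few reads to be tested. The neutrophil sum was lowest in HFD-KO replicate 1, as Lcn2 was, but highest in HFD-WT replicate 2. The 3 tested markers were all higher in HFD-KO replicate 2 than in replicate 1, with a median log2 ratio of 1.28. S100a9 had the order of Saa1, at 2.28 and 2.33 CPM in HFD-WT and 0.911 and 2.85 CPM in HFD-KO libraries, a 3.12-fold difference between the latter. S100a8, at 1.07 and 1.16 CPM against 0.304 and 0.879 CPM, was 2.89-fold apart between them, and Csf3r was 1.21-fold apart. These rest on 8 to 68 reads in an HFD-KO library, and S100a9 was named after its values were seen. Adipocyte markers, which matter for Saa3, summed to 142.3 and 147.7 CPM against 99.7 and 113.5 CPM, mostly through Cidec, which fatty hepatocytes also express. Of the 4 tested, 1 was higher (Cfd) and 1 lower (Cidec) at an unadjusted p under 0.05, where 4.25% and 4.73% of all genes were. Cfd measured 4.6 and 2.0 CPM in HFD-WT and 5.0 and 7.6 CPM in HFD-KO libraries. The defining markers Adipoq, Plin1, Lep and Retn had too few reads to be tested, Lep with 0 in every library.

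Other lists moved with the HFD-KO libraries. Red cell genes summed to 756.8 and 600.2 CPM in HFD-WT and 810.3 and 1146 CPM in HFD-KO libraries, and were highest in HFD-KO replicate 2. Of these genes 3 of 5 were higher at an unadjusted p under 0.05, where 4.25% of all genes tested were. Plasma cell markers summed to 231.9 and 215.2 CPM against 334.6 and 290.6 CPM (5 of 7 tested higher), mostly through Sdc1, which hepatocytes also express. Without Sdc1 the sums were 17.7 and 15.2 CPM in HFD-WT, 120 CPM in HFD-KO replicate 1 and 26.0 CPM in HFD-KO replicate 2, so this list divided the HFD-KO libraries the opposite way from the acute phase genes. Ighm measured 73.9 and 7.45 CPM and Igkc 32.6 and 5.90 CPM in the HFD-KO libraries, and 4 of the 7 genes were at least 2-fold lower in replicate 2, while Igha and Derl3 were higher there. Ighm and Igkc were named after their values were seen. Hepatocyte markers summed to 82346 and 82967 CPM against 83658 and 98436 CPM, again highest in HFD-KO replicate 2. That sum was mostly Alb, at 52653 and 66078 CPM in the HFD-KO libraries. Of the 10 markers, 6 were higher in HFD-KO replicate 2 than in replicate 1, and 3 had the order of Saa1, against 9.01% of all genes. None of the cell type markers passed an adjusted p under 0.05 by edgeR, and the part of these cells in the acute phase values was not tested.

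The genes with a pattern most like Saa1 over the 4 libraries were found by the root mean square difference of centred log2 CPM, among 7611 genes at 10 CPM or more that were not members. They were Tfrc, the transferrin receptor (0.0775), Slc41a2, a magnesium transporter (0.130), Fabp4, a fatty acid binding protein (0.142), Itih3, an inter-alpha-trypsin inhibitor heavy chain (0.145), and Pdpr, a regulator of pyruvate dehydrogenase phosphatase (0.160). Tfrc measured 16.5 and 14.7 CPM in HFD-WT libraries and 12.2 and 30.7 CPM in HFD-KO libraries. Itih3 measured 827.9 and 805.6 CPM against 701 and 1506 CPM, and it is the 1 of these 5 that is itself an acute phase gene.

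By the same measure the members nearest to Saa1 were Saa2 (0.103), Saa3 (0.181) and Orm1 (0.215), then Orm2 (0.265), Lcn2 (0.281), Apcs (0.353) and Hp (0.358). Crp (0.441) and Saa4 (0.532) were the furthest. The likeness rests on 4 libraries, and it is a description without a test.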

How the data were processed

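Liver polyA RNA of HFD-WT and HFD-KO male mice was sequenced, with 2 libraries per group, grouped and numbered as the labels give them. The authors aligned paired reads with the MGI Tech tool, and Partek Genomics Suite gave expression per GENCODE gene. Versions, use of strand and the treatment of reads with several alignments are not given in the sources used here. The methods name mm10 and the submitters' processing notes name mm10 and GRCm39, and the gene positions in the table are those of GRCm39. The RefSeq promoter windows are on GRCm38.p6, and no position was converted between them.

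The deposited read counts are whole numbers per gene without normalization, and only these were tested. The TPM values of the authors served for levels between genes, and the RPKM values of the authors for exon lengths and a second order of levels. The deposited values headed CPM are not plain CPM but a score whose library size was adjusted, and no result uses them.

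The test was that of edgeR 4.0.16 under R 4.3.3 (filterByExpr, TMM, quasi-likelihood test, two-sided, Benjamini-Hochberg adjustment over 12967 genes), with a common biological coefficient of variation of 0.102. DESeq2 1.42.0 was an alternative. Tables and plots were made in Python 3.11.15 with numpy 2.4.6, pandas 2.3.3, matplotlib 3.10.9 and Biopython 1.88. Ratios between replicates used CPM with 0.1 added. The test script was tested on simulated data. Nothing says that the libraries are separate animals, so p-values measure only the spread between these libraries, and an exact permutation test of 2 against 2 cannot go below 0.333. Floors of 3 reads cover counting error only, while the 95% intervals are those of the edgeR fit and carry the spread between libraries.

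The genes, lists and tests were chosen with earlier results of these data known. Genes named were all 10 members, Adarb1, from each related list up to 4 with the smallest p and the 1 with the highest mean CPM, from each cell type list the 2 with the smallest p and the 1 with the highest mean CPM, and the 5 most like Saa1. Genes named outside this rule are given as such, are named to complete a small count or are markers with too few reads. Alternatives tried were other scalings, no filter on low counts, DESeq2, the replicate number as a block, each library left out and, added after seeing the data, paralogs summed.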

Additional observations from a re-analysis of the deposited data

How the results depend on the processing

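The count of 0 acute phase genes called at an adjusted p under 0.05 was the same with DESeq2's size factors, library size alone, no filter on low counts, DESeq2's test, the replicate block and paralogs summed, and it ran from 0 to 8 when 1 library was left out. The count of members at an unadjusted p under 0.05, 1 in the main comparison, was 0 with library size alone and 3 with no filter, and 0 to 9 with 1 library left out. All genes called, 10 in the main comparison, were 6 with library size alone, 162 with no filter, 115 with DESeq2's test and 20 with the replicate block, and 0 to 705 with 1 library left out. Related genes at an unadjusted p under 0.05, 11 in the main comparison, were 19 with no filter and 3 to 37 with 1 library left out. With 1 library left out the log2 fold change changed sign in 8 members, with ranges of -0.54 to 0.87 for Saa1, -0.55 to 0.64 for Saa2, -0.35 to 0.56 for Saa3, -0.33 to 0.51 for Orm1, -0.98 to 0.33 for Orm2, -1.19 to 0.61 for Lcn2, -0.26 to 0.19 for Hp and -0.12 to 1.68 for Apcs. The cause was not tested. No scaling changed the direction of a member, and RPKM gave the same order of levels for 10 of 10.

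Same-numbered libraries did not deviate together (r = -0.0764 over genes, which are not independent replicates), and no source gives a pairing. With the replicate number as a block, 0 members were called and 1, Saa4, passed an unadjusted p under 0.05, with a lowest adjusted p of 0.615 among the members by edgeR.

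With 2 libraries a group, differences of the size allowed by the intervals of Saa1, Lcn2 and Apcs could not be detected. Depth limits Il6 and Il22 and the neutrophil markers, not the 10 members.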
